A study of Mus musculus with 10 samples.

Results

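The neuronal pentraxins are a small family of secreted, lectin-like proteins of the synapse. *Nptx1* encodes a form that neurons make largely without stimulation, *Nptx2* (also called Narp) encodes a form whose transcript neuronal activity induces, and *Nptxr* encodes a relative that a transmembrane segment holds at the cell surface. The proteins assemble into mixed complexes that bind and cluster AMPA-type glutamate receptors at excitatory synapses, among them the excitatory inputs of parvalbumin interneurons, and that also bind the complement protein C1q.

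The genes were chosen by name, with the genotype difference of *Nptx2* already in view, since *Nptx2* had been seen to move against the other targets of the transcription factor CREB. Of the 3 genes named, 2 (*Nptx1* and *Nptx2*) had probe sets that the annotation assigns to 1 gene. They had 4 such probe sets among 45037, and stand for 2 of 18193 genes. The probe sets of *Nptxr* all list a second gene as well and are described apart. Because the choice used the genotype contrast, the genotype differences of *Nptx1* and *Nptx2* are descriptions and carry no test.

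The arrays (Affymetrix GeneChip Mouse Genome) carried biotin-labelled cRNA made from cortical total RNA. The groups were 5 wild-type (WT) females and 5 Crtc1KO (*Crtc1*-/-) females, all C57BL/6N adults aged 2 months, with the WT mice as littermates of the knockouts and no treatment of either. By the methods the mice were housed alone before they were killed. *Crtc1* encodes a coactivator of CREB, and neither the labels nor the methods name a driver that would limit the knockout to a cell type. RNA of whole cortex cannot tell fewer cells of a type from less RNA per cell.

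*Crtc1* itself (1434476_at) had a mean of 9.69 ± 0.15 in WT and of 6.38 ± 0.27 in *Crtc1*-/- cortex (log2, SD, n = 5), so that every array matched its label. The 10 arrays had medians within 0.03 of each other, and pairs of arrays correlated at 0.994 to 0.998. Markers of excitatory cortical neurons were bright in both groups (mean log2 value 10.77 to 10.83 in WT and 10.68 to 10.76 in *Crtc1*-/- arrays), while those of the choroid plexus were dim (4.16 to 4.63 in WT and 4.18 to 4.63 in *Crtc1*-/- arrays). In all 18193 genes, 56 were higher in *Crtc1*-/- cortex (0.308%) and 83 were lower (0.456%) by limma at a Benjamini-Hochberg adjusted p of 0.05.

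*Nptx2* read higher in all 5 *Crtc1*-/- mice than in any WT mouse on both of its probe sets. On the brighter one, 1420720_at, WT replicates 1 to 5 read 7.83, 7.82, 7.55, 7.53 and 7.97 on the log2 scale, and *Crtc1*-/- replicates 1 to 5 read 8.10, 8.43, 8.40, 8.65 and 8.17. *Crtc1*-/- replicate 4 was the highest of the 10 arrays and WT replicate 4 the lowest, and the groups were 0.13 apart at their nearest points. The means were 7.74 ± 0.19 in WT and 8.35 ± 0.22 in *Crtc1*-/- cortex (SD, n = 5), a log2 difference of 0.61 (standard error 0.11), or 1.53-fold.

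The dimmer *Nptx2* probe set, 1449960_at, gave 4.53, 4.20, 4.03, 4.36 and 4.39 in WT replicates 1 to 5, and 4.76, 4.89, 4.79, 5.03 and 4.66 in *Crtc1*-/- replicates 1 to 5. Here too *Crtc1*-/- replicate 4 was highest, and the nearest arrays of the groups, WT replicate 1 and *Crtc1*-/- replicate 5, were 0.12 apart. The log2 difference was 0.52 (standard error 0.10), from a mean of 4.30 ± 0.19 to one of 4.82 ± 0.14 (SD, n = 5). All of its values lie below the median of all probe sets, 5.30, so the signal is weak.

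*Nptx1* showed no such separation. Probe set 1434877_at read 11.24, 11.16, 11.22, 11.10 and 11.23 in WT replicates 1 to 5, and 11.19, 11.11, 11.27, 11.23 and 11.28 in *Crtc1*-/- replicates 1 to 5. The ranges overlapped almost completely, with means of 11.19 ± 0.06 and 11.22 ± 0.07 (SD, n = 5) and a log2 difference of 0.02 (standard error 0.05). The second probe set, 1422130_at, read 9.20, 9.16, 9.10, 8.96 and 9.16 in WT replicates 1 to 5, and 9.11, 9.13, 9.18, 9.19 and 9.21 in *Crtc1*-/- replicates 1 to 5. WT replicate 4 was the lowest array on both *Nptx1* probe sets, and the difference on the second was 0.05 (standard error 0.05).

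**Figure D1:**
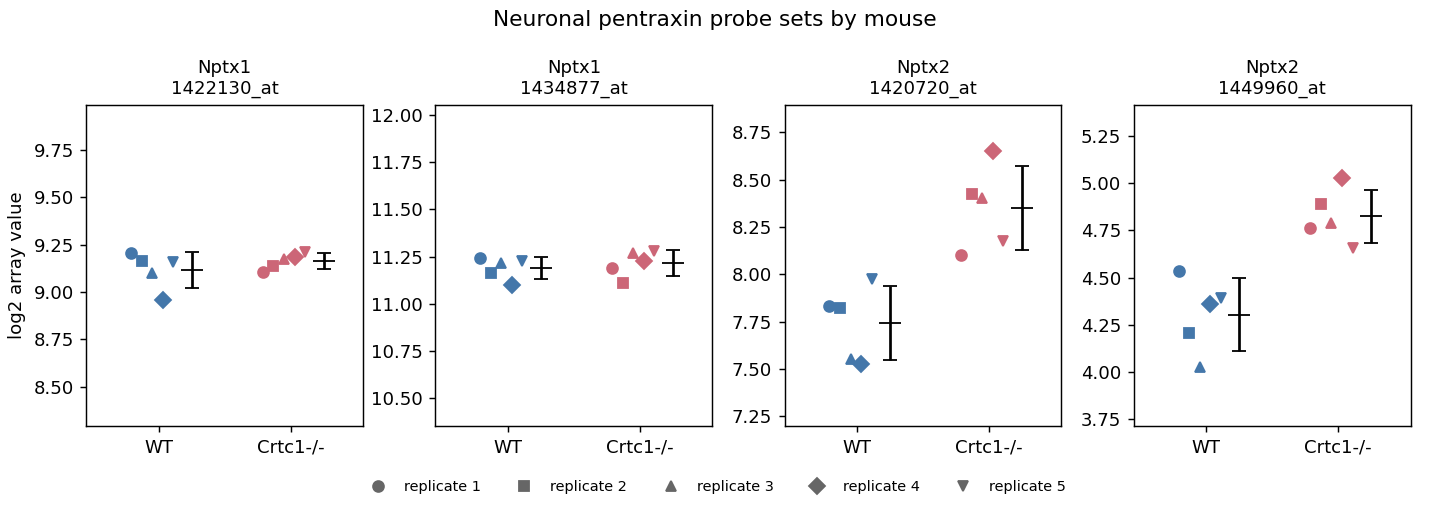
Log2 array value (y axis) of each *Nptx1* and *Nptx2* probe set in 5 WT and 5 *Crtc1*-/- mice. Symbols mark replicate numbers, bars the group mean and SD, and every panel spans the same number of log2 units. The *Nptx2* groups lie apart by 0.13 (1420720_at) and 0.12 (1449960_at), and the *Nptx1* groups overlap.

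The 3 probe sets that name *Nptxr* also name *Npcd*, a readthrough gene that includes *Nptxr*, and the array cannot tell these transcripts apart. The brightest of them, 1434270_at, read 11.83, 11.87, 11.76, 11.69 and 11.58 in WT replicates 1 to 5, and 11.97, 11.87, 11.83, 11.93 and 11.74 in *Crtc1*-/- replicates 1 to 5. Its groups overlapped, with means of 11.74 ± 0.12 and 11.87 ± 0.09 (SD, n = 5) and a log2 difference of 0.12 (standard error 0.07). The other two overlapped as well, with differences of 0.06 (1421181_at, standard error 0.06) and −0.03 (1450147_at, standard error 0.06).

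Both *Nptx2* probe sets, 2 of the 4 described here, had all *Crtc1*-/- arrays above all WT arrays, a pattern found in 321 of 45037 probe sets (0.713%). By limma over probe sets, 0 of the 4 were called in either direction and 2 had an unadjusted p below 0.05, where 52 of all probe sets (0.115%) were called higher and 3238 (7.19%) had an unadjusted p below 0.05. Over genes, *Nptx2* was among the 56 called higher and *Nptx1* was not called. The choice of the genes used this contrast, so nothing is read from these counts. In the gene order of GRCm38.p6, *Nptx1*, *Nptx2* and *Nptxr* lie on chromosomes 11, 5 and 15, other than that of *Crtc1*, chromosome 8.

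The spread between mice of 1 genotype, which the choice did not use, was larger for *Nptx2* than for *Nptx1*. The SD within genotype was 0.208 for *Nptx2* (1420720_at), above that of 93.2% of the 4467 probe sets whose mean lay within 0.5 of its own on the log2 scale. For *Nptx2* 1449960_at it was 0.169, above 68.4% of 6479 such probe sets. For *Nptx1* it was 0.0645 (1434877_at, above 58.8% of 1058) and 0.0746 (1422130_at, above 48.9% of 3436). *Nptx2* thus stood toward the variable end of probe sets of like brightness on its brighter probe set, and *Nptx1* near the middle on both. These shares are descriptions over probe sets and carry no test.

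Deviations of each mouse from its genotype mean do not depend on the genotype difference, and 13 relations among them were tested over the 10 arrays (exact permutation test within genotype, two-sided, Benjamini-Hochberg over the 13). None passed. The probe sets of *Nptx1* gave r = 0.73 (p = 0.0151, adjusted p = 0.196, rho = 0.77, p = 0.0122, adjusted p = 0.158), and r = 0.57 without the 2 arrays farthest from the median. Those of *Nptx2* gave r = 0.65 (exact p = 0.0536, adjusted p = 0.349, rho = 0.66, p = 0.0575, adjusted p = 0.374), and r = 0.84 without the 2 farthest arrays. *Nptx1* and *Nptx2* gave r = 0.18 with each other (exact p = 0.631, adjusted p = 0.979, rho = 0.26, p = 0.507, adjusted p = 0.995), and 0.10 without the 2 farthest arrays. On 1420720_at, *Nptx2* ran highest within genotype in *Crtc1*-/- replicate 4 and WT replicate 5, which lay 0.01 and 0.04 above their genotype means for *Nptx1*. On 1449960_at *Crtc1*-/- replicate 4 was again highest in its group, but among the WT mice replicate 1 (0.23 above the mean) stood above replicate 5 (0.09 above).

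In each genotype the mouse highest on 1420720_at also had the highest mean over 31 immediate early genes, which neurons transcribe within minutes of activity. *Crtc1*-/- replicate 4 lay 0.30 above its genotype mean for *Nptx2* (1420720_at, used for *Nptx2* in all that follows within genotype) and 0.32 above it for the immediate early genes, and WT replicate 5 lay 0.23 and 0.18 above. Over 10 arrays *Nptx2* and that mean gave r = 0.63 (exact permutation p = 0.0805, adjusted p = 0.349, rho = 0.52, p = 0.157, adjusted p = 0.681). Without these 2 arrays, the farthest from the median of the immediate early gene mean, r was −0.06, so the relation rests on them. *Nptx1* and the same mean gave r = −0.14 (exact permutation p = 0.746, adjusted p = 0.979, rho = −0.25, p = 0.550, adjusted p = 0.995), and −0.71 without the 2 farthest arrays.

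**Figure D2:**
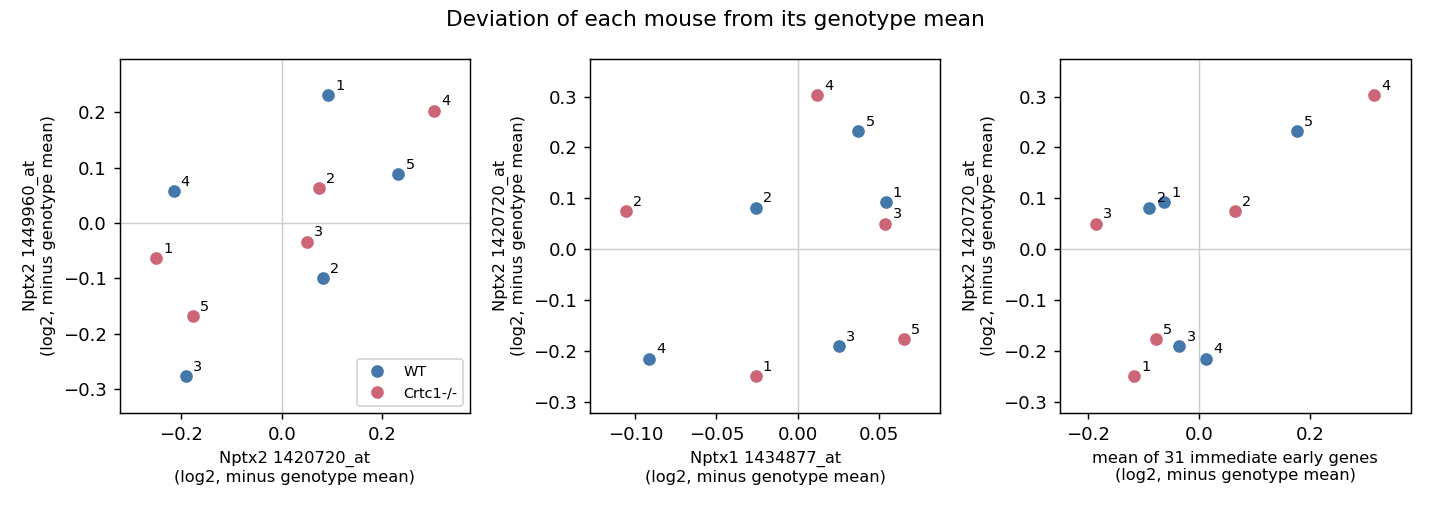
Deviation of each mouse from its genotype mean (log2), for *Nptx2* 1449960_at against *Nptx2* 1420720_at, *Nptx2* against *Nptx1*, and *Nptx2* against the mean of 31 immediate early genes. Points are mice, numbered by replicate. In the right panel *Crtc1*-/- replicate 4 (0.32, 0.30) and WT replicate 5 (0.18, 0.23) lie at the upper right, away from the other 8 mice.

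Among 11779 genes whose brightest probe set lay above the median of all probe sets, the 5 whose deviations were most like those of *Nptx2* over the 10 arrays were *Pold3*, a subunit of a replicative DNA polymerase (r = 0.967), *Tmem121b* (r = 0.945), *Tmem200a* (r = 0.937), the lipid transporter *Abca8a* (r = 0.929) and *Kctd10* (r = 0.926). Of these, *Abca8a* had a genotype difference of 0.47 (standard error 0.13, adjusted p = 0.184 by limma over genes) and *Pold3* one of 0.01 (standard error 0.04). The 5 nearest to *Nptx1* were *Slc2a4rg-ps* (r = 0.963), *Zkscan17* (r = 0.920), *Elac1* (r = 0.917), *Taf13*, a subunit of the general transcription factor TFIID (r = 0.910), and *Dubr* (r = 0.906). No gene was in both groups of 5. They are the highest of many correlations over few arrays and are given as a description.

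The receptors that neuronal pentraxins cluster showed no called change. Of 25 genes of AMPA receptor subunits, auxiliary subunits and scaffolds, 0 passed in either direction by limma over genes. An unadjusted p below 0.05 was found for 7 of the 25, a larger share than over all genes (1794 of 18193, 9.86%). The median log2 difference of the 25 was −0.07, with 9 above 0, beside a median of −0.003 and 8800 above 0 over all genes. Without WT replicate 3 or without WT replicate 4, 1 of the 25 passed as lower. These were *Shisa9* without WT replicate 3 (−0.28, limma adjusted p = 0.0454) and *Shisa6* without WT replicate 4 (−0.46, limma adjusted p = 0.00886).

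The pore-forming subunits *Gria1* to *Gria4* had log2 differences of −0.03 (standard error 0.07, adjusted p = 0.930), −0.07 (standard error 0.04, adjusted p = 0.648), 0.10 (standard error 0.05, adjusted p = 0.610) and −0.14 (standard error 0.06, adjusted p = 0.446) by limma over genes. *Gria1* took the other sign with the marker mean of the hippocampus or of the upper cortical layers as a covariate. *Gria2* read lower in all *Crtc1*-/- mice than in any WT mouse, 11.84 ± 0.02 against 11.77 ± 0.06 (SD, n = 5), although it did not pass. With averaged probe sets *Gria2* was at −0.01 and with the excitatory neuron covariate at 0.000651. The auxiliary subunits with the smallest p were *Shisa6* (−0.37, adjusted p = 0.139), *Shisa9* (−0.24, adjusted p = 0.147), *Cacng5* (0.28, adjusted p = 0.149) and *Cnih2* (−0.25, adjusted p = 0.154), whose groups overlapped. The *Shisa6* groups overlapped only through WT replicate 4, which read 5.19 beside 5.07 to 5.32 in the *Crtc1*-/- mice.

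Genes of pentraxin processing and binding did not pass either. None of the 5 did in either direction by limma, 1 had an unadjusted p below 0.05, and the median was 0.01. *Adam17*, the protease that releases the neuronal pentraxin receptor from the membrane, had a log2 difference of −0.05 (standard error 0.09, adjusted p = 0.915), and *Rcn2*, a calcium-binding protein that binds neuronal pentraxins, one of 0.10 (standard error 0.05, adjusted p = 0.477). The C1q chains *C1qb* and *C1qc* gave 0.04 (adjusted p = 0.959) and −0.05 (adjusted p = 0.937). The signs of *Adam17*, *C1qb* and *C1qc* turned under a covariate.

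The related pentraxins outside the nervous system, 5 of 6 of them measured, were all dim here (mean of the 5 between 3.55 and 3.73 in each array), and 0 passed in either direction by limma, with 0 at an unadjusted p below 0.05. *Ptx4* had a log2 difference of 0.15 (adjusted p = 0.532), the serum amyloid component *Apcs* −0.11 (adjusted p = 0.705), *Ptx3* 0.08 (adjusted p = 0.827) and the acute-phase protein *Crp* 0.06 (adjusted p = 0.870). Their groups overlapped, while *Ptx4* and *Apcs* took the other sign with the upper cortical layer markers as a covariate, and *Crp* with the excitatory neuron markers.

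Genes of parvalbumin interneurons and their perineuronal nets, at whose excitatory inputs *Nptx2* protein gathers, showed no called change. Of 13 genes, 0 passed in either direction by limma and 0 had an unadjusted p below 0.05, with a median of 0.06 and a range of −0.14 to 0.11. The net receptor *Ptprz1* gave 0.08 (adjusted p = 0.613), the fast potassium channel *Kcnc1* 0.08 (adjusted p = 0.620, with the other sign under the hippocampus or the upper cortical layer covariate), the net protein *Tnr* −0.12 (adjusted p = 0.650) and the hyaluronan synthase *Has2* −0.14 (adjusted p = 0.687). *Has2*, which set the lower end of the range, was dim, with a mean above that of only 15.7% of probe sets.

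Of 24 other secreted synapse organizers and their partners, 1 passed as higher and 0 as lower (median 0.06, 5 with an unadjusted p below 0.05). The one that rose was *Nrn1*, or neuritin, an activity-induced protein anchored at the neuronal surface. It read 11.34, 11.29, 11.17, 11.24 and 11.34 in WT replicates 1 to 5, and 11.57, 11.61, 11.61, 11.49 and 11.50 in *Crtc1*-/- replicates 1 to 5. The groups did not overlap, with a log2 difference of 0.28 (standard error 0.05, limma over genes, adjusted p = 0.0174). The call was lost without WT replicate 4 or without *Crtc1*-/- replicate 1, 2 or 3, with an adjusted p of at most 0.0549, with the replicate block (adjusted p = 0.117), and with each of the 4 marker means run as a covariate (adjusted p up to 0.693).

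Among 17 activity-regulated secreted proteins, the class to which *Nptx2* belongs by its induction, 6 passed as lower and 2 as higher, with a median of −0.15 and 15 below 0. Those lower included *Cartpt* (−1.26, adjusted p = 0.00447), *Cort* (−0.59, adjusted p = 0.000767) and *Sst* (−0.54), all neuropeptide precursors, and the granin *Scg2* (−0.41, adjusted p = 0.00057). With the hippocampal, upper cortical layer and excitatory neuron covariates 2, 1 and 0 of the 17 were lower, and *Cartpt* was at −0.78 with the second. The upper layer and excitatory neuron means did not overlap between genotypes, and the hippocampal means overlapped only from 4.72 to 4.73. A call lost under any of these covariates, here or in the other lists, says little. The 2 higher were *Nrn1* and *Adcyap1*, the precursor of the neuropeptide PACAP. *Adcyap1* read 6.82, 6.90, 6.74, 6.99 and 7.11 in WT replicates 1 to 5, and 7.19, 7.40, 7.26, 7.46 and 7.27 in *Crtc1*-/- replicates 1 to 5. Its groups did not overlap, and its log2 difference was 0.41 (standard error 0.07, adjusted p = 0.0282 by limma over genes). It passed in 7 of 21 alternative analyses and lost the call without any 1 of WT replicates 1 to 4 or *Crtc1*-/- replicates 2 to 5 (adjusted p at most 0.0803).

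Of 31 measured immediate early genes, 4 passed as lower and 0 as higher, with 18 at an unadjusted p below 0.05 and differences from −0.99 to 0.81. Over all genes, the background for this and the other lists, 0.456% passed as lower and 0.308% as higher. An unadjusted p below 0.05 was found for 9.86% of all genes. The lists were chosen with earlier results known, so these shares are descriptions. The nuclear receptors *Nr4a1* (−0.99, adjusted p = 0.00954) and *Nr4a3* (−0.94, adjusted p = 0.00485), the kinase *Plk2* (−0.29, adjusted p = 0.0385) and the phosphatase *Dusp1* (−0.41, adjusted p = 0.0401) were those that fell. Without *Crtc1*-/- replicate 4, the mouse with the highest *Nptx2* and the highest immediate early gene mean, 5 passed as lower. Without WT replicate 2 the count was 3, and without any other array 2. *Dusp1* passed without WT replicate 2 or *Crtc1*-/- replicate 4 and *Plk2* without *Crtc1*-/- replicate 4, and each missed the threshold without any other array (adjusted p at most 0.105). With the hippocampal, upper cortical layer or excitatory neuron covariate 0 of the 31 passed (*Nr4a1* adjusted p = 0.324 and *Nr4a3* adjusted p = 0.244 with the first by limma, and *Nr4a1* at −0.58 with the second). With averaged probe sets *Nr4a3* was at −0.36 (adjusted p = 0.0197) and *Plk2* at −0.11 (adjusted p = 0.655).

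**Figure D3:**
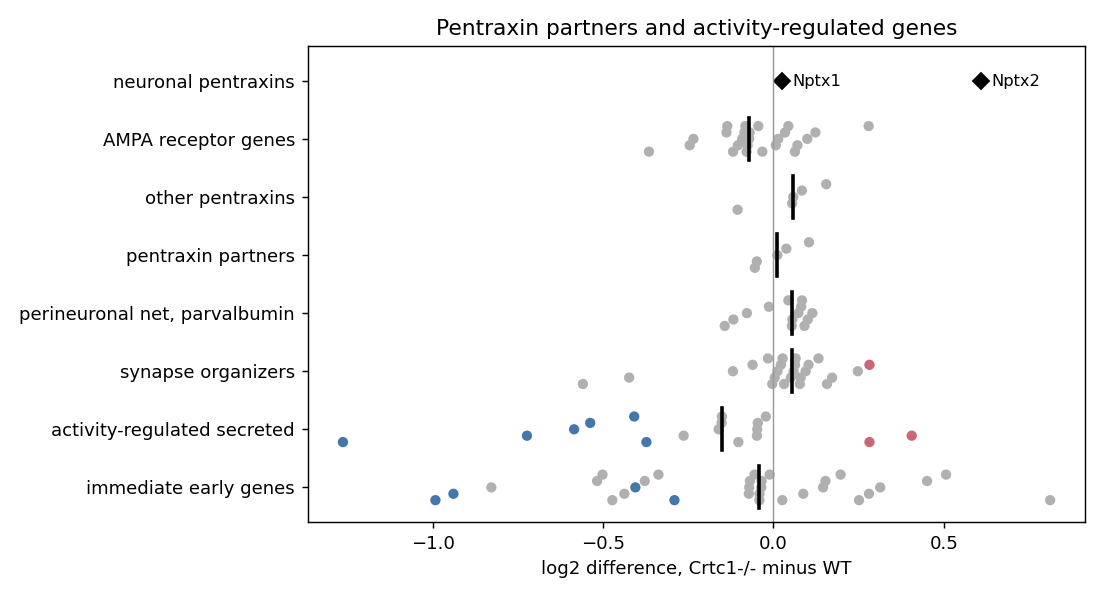
Log2 difference between *Crtc1*-/- and WT cortex (x axis) of each measured gene in 7 groups of genes (rows), with *Nptx1* and *Nptx2* as black diamonds on top. Red and blue points passed as higher and lower by limma over genes, grey points did not pass, and black lines are medians. *Nptx2*, at 0.61, lies to the right of every gene of the 7 groups except the early gene *Egr2* at 0.81, which did not pass. *Nptx2* was chosen with this difference in view, so its place is a description.

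Beside 35 other CREB target genes *Nptx2* had the highest log2 difference of the 36, which is what it was chosen for. The next were the early genes *Npas4* (0.51, adjusted p = 0.345) and *Arc* (0.45, adjusted p = 0.424), *Adcyap1* (0.41), the only one of the 35 that passed as higher, and *Egr1* (0.25, adjusted p = 0.387). *Npas4*, *Arc* and *Egr1* are named after their values were seen. Their groups overlapped, with standard errors of 0.18, 0.18 and 0.10, and differences between these genes and *Nptx2* were not tested. Of the 35, 30 lay below 0 and 8 passed as lower, or 3, 2 and 0 with the hippocampal, upper cortical layer and excitatory neuron covariates. *Cartpt* was lowest (−1.26), followed by *Nr4a1* and *Nr4a3*, and *Crem*, a modulator of cAMP-responsive transcription, lay at −0.74 (−0.35 with averaged probe sets).

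**Figure D4:**
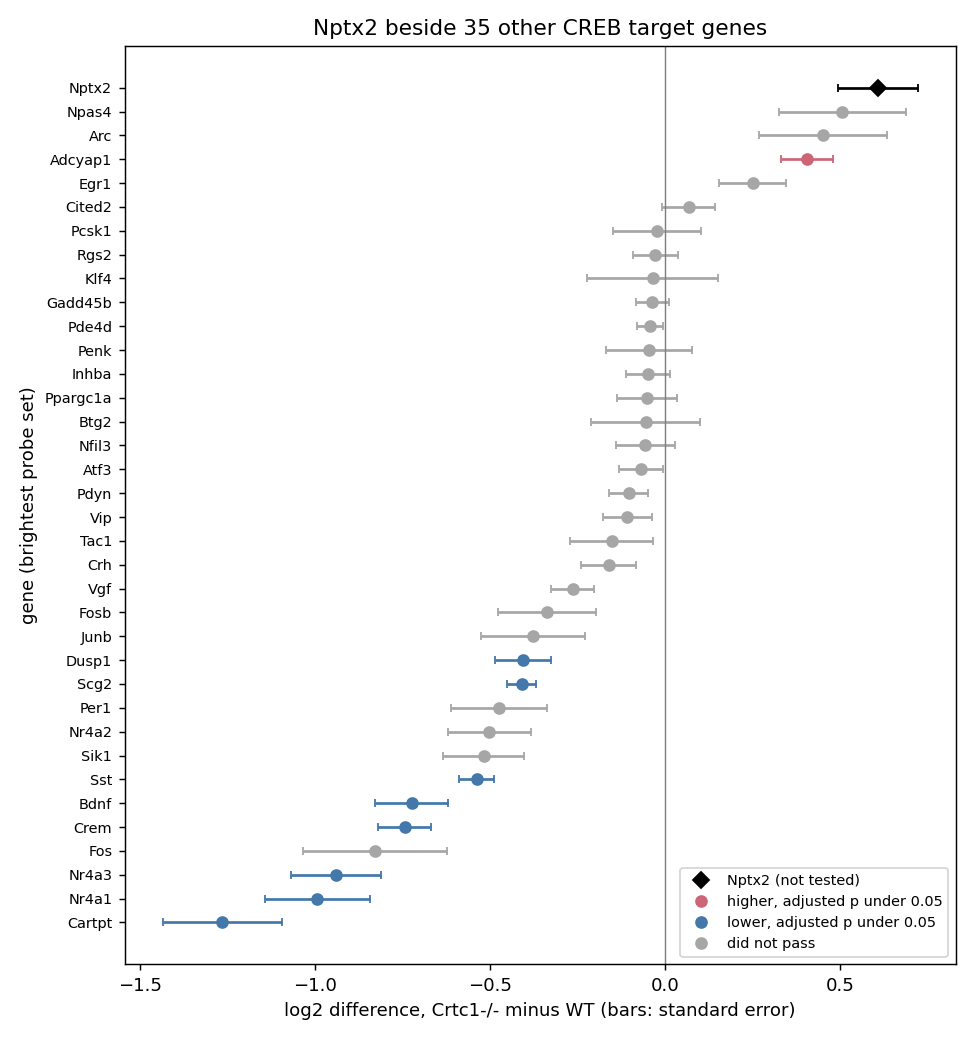
Log2 difference between *Crtc1*-/- and WT cortex (x axis, bars are standard errors) of *Nptx2* and 35 other CREB target genes, in order of size. *Nptx2* (black), chosen for this difference, is at the top with 0.61, *Adcyap1* (red, 0.41) passed as higher, 8 genes (blue) passed as lower, and *Cartpt* is at the bottom with −1.26.

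Single markers of some cell classes differed with genotype beside *Nptx2*, and no class mean was tested. The mean of 7 upper cortical layer markers ran from 9.52 to 9.61 in WT and from 9.62 to 9.73 in *Crtc1*-/- arrays, with 4 of 7 above 0 and 2 that rose, *Lamp5* (0.25, adjusted p = 0.0120) and *Rasgrf2* (0.26, adjusted p = 0.0152). The mean of 9 hippocampal markers ran from 4.72 to 4.88 in WT and from 4.57 to 4.73 in *Crtc1*-/- arrays, with 4 of 9 above 0, 5 below 0 and 2 that fell, *Fibcd1* (−0.41, adjusted p = 0.00922) and *Fam163b* (−0.28, adjusted p = 0.0188, and at most 0.0580 without 1 array, with the call lost without WT replicate 1, 2 or 3 or *Crtc1*-/- replicate 3). These 4 calls were lost with the replicate block and with each of the 4 marker covariates run (*Rasgrf2* with 3 of 4), and those of *Rasgrf2* and *Fam163b* also with averaged probe sets, at adjusted p-values of up to 0.701 (*Lamp5*), 0.763 (*Rasgrf2*), 0.725 (*Fibcd1*) and 0.754 (*Fam163b*). The upper layer mean includes *Lamp5* and *Rasgrf2*, and the hippocampal mean *Fibcd1* and *Fam163b*, so these genes were adjusted partly for themselves. In every array the hippocampal mean lay below the median of all probe sets, 5.30, and whether it follows hippocampal tissue was not tested. The upper layer and excitatory neuron means did not overlap between genotypes, and the hippocampal means barely did. Fits with any of these means can hardly tell that mean from genotype. All 11 oligodendrocyte markers lay above 0 and 0 passed (limma, 5 with an unadjusted p below 0.05), with means from 9.97 to 10.30 in WT and from 10.23 to 10.55 in *Crtc1*-/- arrays. The excitatory neuron markers lay below 0 in 5 of 6, with 0 passing (3 with an unadjusted p below 0.05). Of the interneuron markers 8 of 9 lay below 0, and 1, *Sst*, passed as lower. The astrocyte markers lay above 0 in 7 of 8 and the endothelium markers in 5 of 5, with 0 passing in either class.

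With the oligodendrocyte mean as a covariate, the *Nptx2* difference (1420720_at) was 0.60 (standard error 0.16), with the hippocampal mean 0.72 (standard error 0.17), and, both added after the values were seen, 0.83 with the upper cortical layer mean (standard error 0.21) and 0.75 with the excitatory neuron mean (standard error 0.20). On 1449960_at the same fits gave 0.52, 0.51, 0.47 and 0.58, with standard errors of 0.13 to 0.19. The standard errors were larger than without a covariate in all of these fits. Within genotype, *Nptx2* gave r = −0.37 with the upper layer mean (exact permutation p = 0.329, rho = −0.37, p = 0.347, and r = −0.01 without the 2 farthest arrays), 0.27 with the hippocampal and with the excitatory neuron mean, and 0.01 with the oligodendrocyte mean. *Nptx1* gave −0.08 to 0.02 with the same means. For each of these 8 relations the adjusted p was 0.979 for r and 0.995 or 1 for rho. The RNA quality control *Gapdh* differed between its 3′ and 5′ probe sets by 0.085 to 0.112 in WT and 0.027 to 0.119 in *Crtc1*-/- arrays, with the lowest value in *Crtc1*-/- replicate 1. Without that array the *Nptx2* difference was 0.67.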

How the data were processed

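The values the authors deposited are on the log2 scale, with each probe set read once per array, after they excluded arrays with a high normalized unscaled standard error, and the background correction, normalization and summarization are not given in the sources used here. Of 45101 probe sets, 64 controls were left out. The annotation names 1 gene for 34945 probe sets, several for 932 and none for 9160. It names no genome build, so no coordinates of probe sets are given, and the chromosomes are those of GRCm38.p6. The sources used here held no promoter of *Nptx1*, *Nptx2* or *Nptxr*, so no sequences are given. Each of 18193 genes was represented by its brightest probe set. Differences were taken as *Crtc1*-/- minus WT with limma 3.58.1 (R 4.3.3; lmFit, then eBayes, no covariate), and p-values were adjusted by Benjamini-Hochberg over all probe sets or all genes at 0.05. The labels give 5 mice per genotype and say nothing more of separate litters or extractions. The number of arrays limits the precision.

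The genes described and all gene lists were chosen with earlier results of these data known. For each list the text names up to 4 genes that passed in each direction, smallest p first, or otherwise the 4 with the smallest p, and also *Crtc1*, the AMPA receptor subunits and the 5 genes most like each pentraxin. *Npas4*, *Arc*, *Egr1* and *Egr2* fall outside this rule. Some genes (29) stand in more than 1 list. Relations within genotype numbered 13 in place of those planned, because *Nptxr* had no probe set of its own and because the upper cortical layer mean and the pairs of probe sets of 1 gene were added after the values were seen. The labels do not say whether same-numbered arrays share anything beyond the number, and their deviations correlated at −0.33 to 0.09. The fit and the permutation test were tested on simulated data. The alternatives were quantile normalization, subtracting array medians, array weights, the replicate block, marker means as covariates, a trended and robust prior, leaving out dim probe sets, averaging the probe sets of each gene, and leaving out arrays.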

Additional observations from a re-analysis of the deposited data

Results flagged for a closer look

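In 86 groups of 5 arrays, 5 held an array far from the other 4 by Dixon's ratio at the 95% level, and chance gives about 1 in 20. *Gria2*, the AMPA receptor subunit, read 11.669 in *Crtc1*-/- replicate 1 and 11.785 to 11.813 in the other *Crtc1*-/- mice. *Shisa6*, an auxiliary subunit, read 5.192 in WT replicate 4 and 5.581 to 5.730 in the other WT mice. The pentraxin *Ptx4* read 3.140 in *Crtc1*-/- replicate 4 and 3.444 to 3.483 in the others of its group. *Scg2* read 10.222 in *Crtc1*-/- replicate 4 against 10.169 to 10.184, and *Lamp5* read 12.006 in *Crtc1*-/- replicate 1 against 11.910 to 11.917. No array of *Nptx1* or *Nptx2* lay that far from its group.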

How the results depend on the processing

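The *Nptx2* difference, for which the gene was chosen, stayed above 0 in every analysis run, from 0.59 to 0.72 on 1420720_at and from 0.50 to 0.52 on 1449960_at under the planned settings, apart from 0.56 as the mean of both probe sets. Its sign could not turn without 1 array or with array weights, since every *Crtc1*-/- array lay above every WT array on both probe sets. Of the covariates chosen after seeing the data, the upper cortical layer mean gave 0.83 and 0.47 and the excitatory neuron mean 0.75 and 0.58. Without 1 array it ran from 0.53 to 0.67 on 1420720_at and from 0.45 to 0.58 on 1449960_at. That of *Nptx1* ran from 0.02 to 0.04 on 1434877_at and from 0.04 to 0.09 on 1422130_at under the planned settings, the last with the oligodendrocyte covariate, and from 0.002 to 0.051 and from 0.006 to 0.068 without 1 array. The replicate block leaves the differences as they are by construction, and the standard error was 0.136 for *Nptx2* 1420720_at and 0.0949 for 1449960_at, beside 0.115 and 0.0959 without it.

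Counts of calls moved further. Over probe sets 84 were lower and 52 higher, over genes 83 and 56, and among the listed genes 11 and 2. The replicate block gave 28 and 12 probe sets, 36 and 26 genes, and 7 and 0 listed genes. The oligodendrocyte covariate gave 21 and 9, 32 and 22, and 7 and 0, the hippocampal covariate 12 and 6, 17 and 6, and 3 and 0, the upper cortical layer covariate 6 and 4, 8 and 4, and 2 and 0, and the excitatory neuron covariate 7 and 5, 7 and 4, and 0 and 0. The trended and robust prior gave 154 and 85 probe sets and 148 and 88 genes. Averaging the probe sets of each gene left 1 listed gene higher. Without 1 array, 45 to 77 probe sets were lower and 24 to 40 higher, 55 to 69 genes were lower and 33 to 51 higher, and 8 to 11 listed genes were lower and 0 to 2 higher. The upper cortical layer and excitatory neuron means did not overlap between genotypes, and the hippocampal means barely did, so fewer calls under them say little. The cause of these shifts was not tested.

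No relation within genotype passed in any setting. Several changed sign, some of them near 0. Others were those of *Nptx2* with the immediate early gene (0.63), hippocampal (0.27) and excitatory neuron (0.27) means. With array medians subtracted *Nptx1* gave 0.000486 with the oligodendrocyte, 0.0179 with the hippocampal and 0.0556 with the excitatory neuron mean. With averaged probe sets *Nptx1* gave 0.177 with the hippocampal and −0.463 with the upper layer mean, and *Nptx2* −0.0236 with the oligodendrocyte mean. Without the 2 farthest arrays *Nptx1* gave −0.258 with the upper layer mean, and *Nptx2* −0.0574 with the immediate early gene, −0.185 with the hippocampal and −0.0175 with the excitatory neuron mean. Without 1 array *Nptx1* and *Nptx2* gave −0.0599 to 0.371 with each other, *Nptx1* −0.28 to 0.28 (excitatory neuron), −0.25 to 0.11 (hippocampus), −0.323 to 0.0122 (immediate early genes), −0.22 to 0.20 (oligodendrocyte) and −0.31 to 0.20 (upper layers), and *Nptx2* −0.0280 to 0.55 (excitatory neuron), −0.0213 to 0.452 (hippocampus), 0.35 to 0.76 (immediate early genes), −0.17 to 0.16 (oligodendrocyte) and −0.57 to −0.15 (upper layers).

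Of 753 differences of named genes under alternatives, 93 lost their call, 2 gained one and 20 changed sign, none of these last past the threshold. They were *Adam17* (0.0397) and *C1qb* (−0.0198) with the oligodendrocyte covariate, *Gria1* (0.0742), *C1qc* (0.0682) and *Kcnc1* (−0.0236) with the hippocampal one, *Gria1* (0.102), *Ptx4* (−0.0613), *Apcs* (0.0489), *C1qc* (0.442) and *Kcnc1* (−0.000429) with the upper layer one, *Gria2* (0.000651), *Crp* (−0.0120), *Adam17* (0.0903) and *C1qc* (0.0887) with the excitatory neuron one, *Adam17* (0.0344) with averaged probe sets, and without 1 array *Adam17* (−0.104 to 0.0144), *C1qb* (−0.0259 to 0.147) and *C1qc* (−0.138 to 0.0324).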
